A study of Mus musculus with 78 samples.

Results

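Livers of 3 male mice that had acarbose at 1000 ppm in the diet for 2 months and were 6 months old were compared with livers of 3 control males of the same age, which are 6 of the 78 libraries of the series, across all expressed genes. All were UM-HET3 mice, a genetically heterogeneous stock in which each animal has its own genotype, and controls ate the Purina 5LG6 diet without the drug. The comparison was set beside 3 acarbose and 3 control females of 6 months, with the same dose and duration, and beside 3 acarbose and 3 control males of 12 months, with 1000 ppm for 8 months. These pairs of groups share no control library. The liver was frozen and its polyA RNA sequenced. Controls were littermates and the 3 samples of a group biological replicates, per the series' design text, so p-values measure the spread between mice. For edgeR at 6 months that spread was taken over a fit of 36 libraries in 12 groups. The fit also holds mice of both sexes on calorie restriction, rapamycin, Protandim or a form of estradiol. With only the compared groups fitted, far fewer genes were called in females and between the sexes, as given at the end.

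Acarbose blocks intestinal alpha-glucosidases, the enzymes that split starch and disaccharides into glucose at the gut wall. It slows the uptake of glucose, lets more carbohydrate reach the gut bacteria, and is itself little absorbed. The liver takes up glucose and gut products from portal blood, makes bile acids from cholesterol and exports them into bile, and nuclear receptors that sense bile acids set the level of many genes of that cycle.

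No gene passed the adjusted threshold in the males. Of 14816 genes tested with edgeR's quasi-likelihood test, 0 (0.0%) had a Benjamini-Hochberg adjusted p under 0.05, and the lowest adjusted p was 0.26. At an unadjusted p under 0.05 there were 1262 genes (8.52%), 538 higher (3.63%) and 724 lower (4.89%) in acarbose males. The 3 acarbose values lay wholly above the 3 control values in 1139 genes (7.69%) and wholly below them in 1258 (8.49%). DESeq2 on the same libraries called 19 genes (0.128%) at an adjusted p under 0.05, 14 higher (0.0945%) and 5 lower (0.0337%), and 18 of the 19 had an unadjusted edgeR p under 0.05. Genes are therefore given below with their values in every mouse, and gene lists with their counts beside these shares of all genes. CPM are counts relative to the library's total, scaled by TMM, log2 fold changes are acarbose over control with an SE, and where a count is given "at p under 0.05" the p is edgeR's unadjusted one. The SE was calculated back from the test, as the absolute log2 fold change over the square root of its F statistic. It thus rests on the spread over all libraries of the fit. The median log2 fold change over all genes was -0.02.

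Assigned counts were 24011398 to 30981621 in acarbose males and 25888571 to 29427028 in control males. The 10 hepatocyte markers, albumin among them, summed to 105549 to 113082 CPM in acarbose males and 77583 to 107799 CPM in control males. Genes at least 4-fold above all 5 other libraries numbered 8 in acarbose male 3, 15 in control male 3 and at most 4 in any of the others. In control male 3 they included the fat cell genes Plin1, Cidea, Adipoq, Fabp4 and Cfd. Plin1, which coats lipid droplets, had 0.0331, 0 and 0.082 CPM in acarbose males against 0.364, 0.04 and 9.69 CPM in control males.

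Acarbose male 3 held RNA of pancreas acinar cells, which make digestive enzymes. Of 37 acinar genes listed, 29 had a median of 0 counts over the 78 libraries, and acarbose male 3 had 7442 counts over these 29, or 291 CPM before scaling. It had at least 1 count for 26 of them and at least 100 for 15. Ctrb1, a chymotrypsinogen, had 0, 0 and 2357 counts in acarbose males and 0, 0 and 0 counts in control males. The lipase gene Pnlip had 0, 1 and 627 counts in acarbose males and 0, 1 and 0 counts in control males. The trypsinogen gene Prss2 had 0, 0 and 570 counts in acarbose males and 0, 0 and 0 counts in control males, and the carboxypeptidase gene Cpa1 had 0, 0 and 567 counts in acarbose males and 0, 0 and 0 counts in control males. The signal was thus in 1 of the 6 libraries, and its trypsinogen genes are close copies that may share reads.

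**Figure D1:**
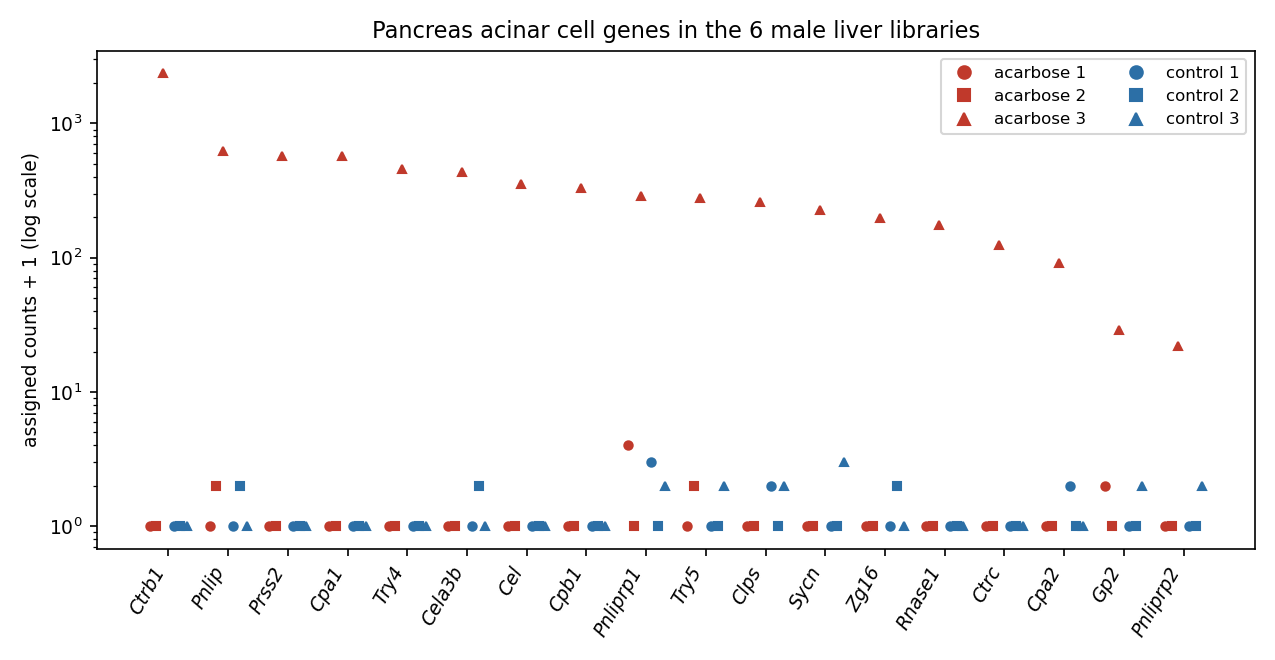
Assigned counts plus 1 (log scale) of the 18 acinar genes with the most counts in acarbose male 3, among those with a median of 0 over all libraries, in 3 acarbose (red) and 3 control (blue) males of 6 months. Acarbose male 3 has 21 to 2357 counts for these genes, and none of the other 5 libraries has more than 3.

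The level in acarbose male 3 was the highest of the series. The next library, a female given Protandim, had 1583 counts over the 29 genes. After it came a Snell male with 675, but 620 of these were of Spink1 alone. The median over the 78 libraries was 4, and 65 libraries had at most 10. Islet genes were scarce beside the enzymes: the insulin gene Ins2 had 0, 0 and 9 counts in acarbose males and 0, 0 and 0 counts in control males, and 6 of 13 islet genes were at 0 in acarbose male 3. Ptf1a, a transcription factor of acinar cells, was at 0 in all 6 libraries. Of the 37 acinar genes 7 passed the filter on low counts. Of these, 2 were higher at p under 0.05, the elastase gene Cela2a and the chymotrypsin-like gene Ctrl, both through acarbose male 3. The filter counts that library too, so the share of these 7 cannot be set against that of all genes. Cela2a had 0, 0 and 343 counts in acarbose males and 1, 0 and 3 counts in control males, and Ctrl had 3, 6 and 260 counts in acarbose males and 10, 5 and 4 counts in control males. Without acarbose male 3 their log2 fold changes were -3.56 ± 3.57 for Cela2a and -0.38 ± 1.01 for Ctrl, against 6.48 ± 2.08 and 3.95 ± 1.13 with it. The reduced values rest on the few counts of the other libraries.

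Leaving acarbose male 3 out gave 954 of 15254 genes (6.25%) at an unadjusted p under 0.05, 421 higher (2.76%) and 533 lower (3.49%). Of these, 694 were among the 1262, which is 55.0% of the full set and 72.7% of the reduced one. Leaving out each of the other libraries gave 875 to 1545 genes, and the count at an adjusted p under 0.05 was 0 each time. Ly6a had 8.76, 2.23 and 52.2 CPM in acarbose males against 1.6, 0.4 and 2.73 CPM in control males, highest in acarbose male 3. The part of the pancreas RNA in these values was not tested.

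Among bile acid genes, the export transporter genes Abcb11 and Slc51b stood higher in acarbose males. Abcb11, the bile salt export pump of the canalicular membrane, had 558, 587 and 523 CPM in acarbose males against 344, 368 and 320 CPM in control males. Every acarbose mouse was above every control mouse, with a log2 fold change of 0.69 ± 0.16 (edgeR adjusted p = 0.324, DESeq2 adjusted p = 0.0341). Slc51b, the beta subunit of the transporter that returns bile acids to the blood, had 32, 14 and 14 counts in acarbose males and 1, 1 and 4 counts in control males. In CPM that was 1.06, 0.624 and 0.574 CPM in acarbose males against 0.0364, 0.04 and 0.135 CPM in control males, without overlap (log2 fold change 3.31 ± 0.79, edgeR adjusted p = 0.324, DESeq2 adjusted p = 0.0471). The few control counts leave the size of that fold loosely set.

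Abcb11 rose in acarbose females by 0.95 on the log2 scale (edgeR adjusted p = 0.00052), and was at 0.03 in 12-month males. The 15 male libraries of 6 months without acarbose reached at most 423 CPM of Abcb11, below each acarbose male. For Slc51b the highest of these 15 was a male given 17-alpha-estradiol, which lay above each acarbose male. Both other males of its group had 0.215 and 0.223 CPM. That group includes a library with 31478 counts over kidney markers, and the part of kidney RNA in its values was not tested. Slc51b rose in both other comparisons, by 3.49 in females (edgeR adjusted p = 0.000897) and by 2.70 in 12-month males (edgeR adjusted p = 0.033). In females it had 2.25, 4.64 and 6.07 CPM in acarbose females and 0.553, 0.26 and 0.318 CPM in control females.

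Cyp2c70, the mouse enzyme that makes muricholic acids, had 219, 286 and 179 CPM in acarbose males against 84.4, 95.9 and 93.4 CPM in control males. The lowest acarbose mouse was well above the highest control (log2 fold change 1.32 ± 0.30, edgeR adjusted p = 0.324, DESeq2 adjusted p = 0.0186), and the gene rose in females by 1.6 (edgeR adjusted p = 0.00136) and was at 0.11 in 12-month males. Males of 6 months on calorie restriction had 148 to 196 CPM, those on 17-alpha-estradiol 75.9 to 190 CPM and those on Protandim 116 to 195 CPM, which all overlap the acarbose males. Cyp2c genes are close in sequence and may share reads.

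For bile acid synthesis and its sensors the males gave no clear shift. Cyp7a1, the rate-limiting enzyme, had 69, 65.5 and 38.2 CPM in acarbose males against 133, 103 and 75.6 CPM in control males, without overlap but with a wide error (-0.85 ± 0.76, edgeR adjusted p = 0.775). Cyp8b1, the sterol hydroxylase needed for cholic acid, had 297, 701 and 466 CPM in acarbose males against 793, 1008 and 621 CPM in control males (-0.73 ± 0.58, edgeR adjusted p = 0.745). Both fell in acarbose females, by 3.49 and 4.11 on the log2 scale (edgeR adjusted p = 0.0086 and 0.000303). The male minus female differences, 2.64 ± 1.09 and 3.38 ± 0.83, were not past the adjusted threshold (edgeR adjusted p = 0.26 and 0.0664). In 12-month acarbose males they were on the other side of 0, at 1.85 and 0.30 (edgeR adjusted p = 0.539 and 0.878). The bile acid receptor gene Nr1h4 (FXR) had 88.6, 86.7 and 88.8 CPM in acarbose males against 115, 119 and 104 CPM in control males (-0.35 ± 0.18, edgeR adjusted p = 0.599). Nr0b2 (SHP), an FXR target, had 53.7, 81 and 126 CPM in acarbose males against 46.1, 88 and 12.4 CPM in control males, with wide overlap.

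Of the 21 measured genes of bile acid synthesis and transport, 2 were at p under 0.05 and higher (9.52%, against 3.63% of all genes) and 0 were lower, with a median log2 fold change of 0.04. The promoters of Abcb11, Slc51b and Cyp2c70 are shown because these genes of the bile acid cycle had the clearest differences. Each window runs from 250 bases before to 50 bases after the annotated start on the gene's strand, from RefSeq on GRCm38.p6, at chr2:69342567-69342866, chr9:65422724-65423023 and chr19:40187237-40187536, all on the minus strand. Capitals mark AGGTCA, the core half-site bound by many nuclear receptors, or its reverse complement TGACCT where it lies on the other strand.

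Abcb11: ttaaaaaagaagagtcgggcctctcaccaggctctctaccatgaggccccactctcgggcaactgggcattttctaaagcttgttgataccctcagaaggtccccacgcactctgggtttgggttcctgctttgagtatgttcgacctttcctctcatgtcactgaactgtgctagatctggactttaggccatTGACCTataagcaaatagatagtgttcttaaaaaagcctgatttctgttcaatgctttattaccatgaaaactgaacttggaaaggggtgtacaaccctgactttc
Slc51b: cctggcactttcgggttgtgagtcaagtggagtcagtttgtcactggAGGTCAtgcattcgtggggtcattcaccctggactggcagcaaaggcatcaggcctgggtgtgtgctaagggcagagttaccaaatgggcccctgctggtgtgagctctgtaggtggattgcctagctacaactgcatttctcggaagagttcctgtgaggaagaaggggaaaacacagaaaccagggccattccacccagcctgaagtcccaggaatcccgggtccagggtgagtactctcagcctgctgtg
Cyp2c70: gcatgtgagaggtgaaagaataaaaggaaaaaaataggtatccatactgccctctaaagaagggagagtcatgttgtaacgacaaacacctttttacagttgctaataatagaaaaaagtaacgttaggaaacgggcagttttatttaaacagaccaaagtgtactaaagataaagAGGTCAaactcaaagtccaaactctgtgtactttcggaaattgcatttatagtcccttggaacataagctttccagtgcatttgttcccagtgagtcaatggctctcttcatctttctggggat

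The motif lies 56 bases before the start in Abcb11, 203 in Slc51b and 74 in Cyp2c70. Of 32851 promoter windows of this length 5340 (16.3%) hold AGGTCA on either strand. These genes were chosen after their values were seen, and a match describes the sequence and shows no binding.

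**Figure D2:**
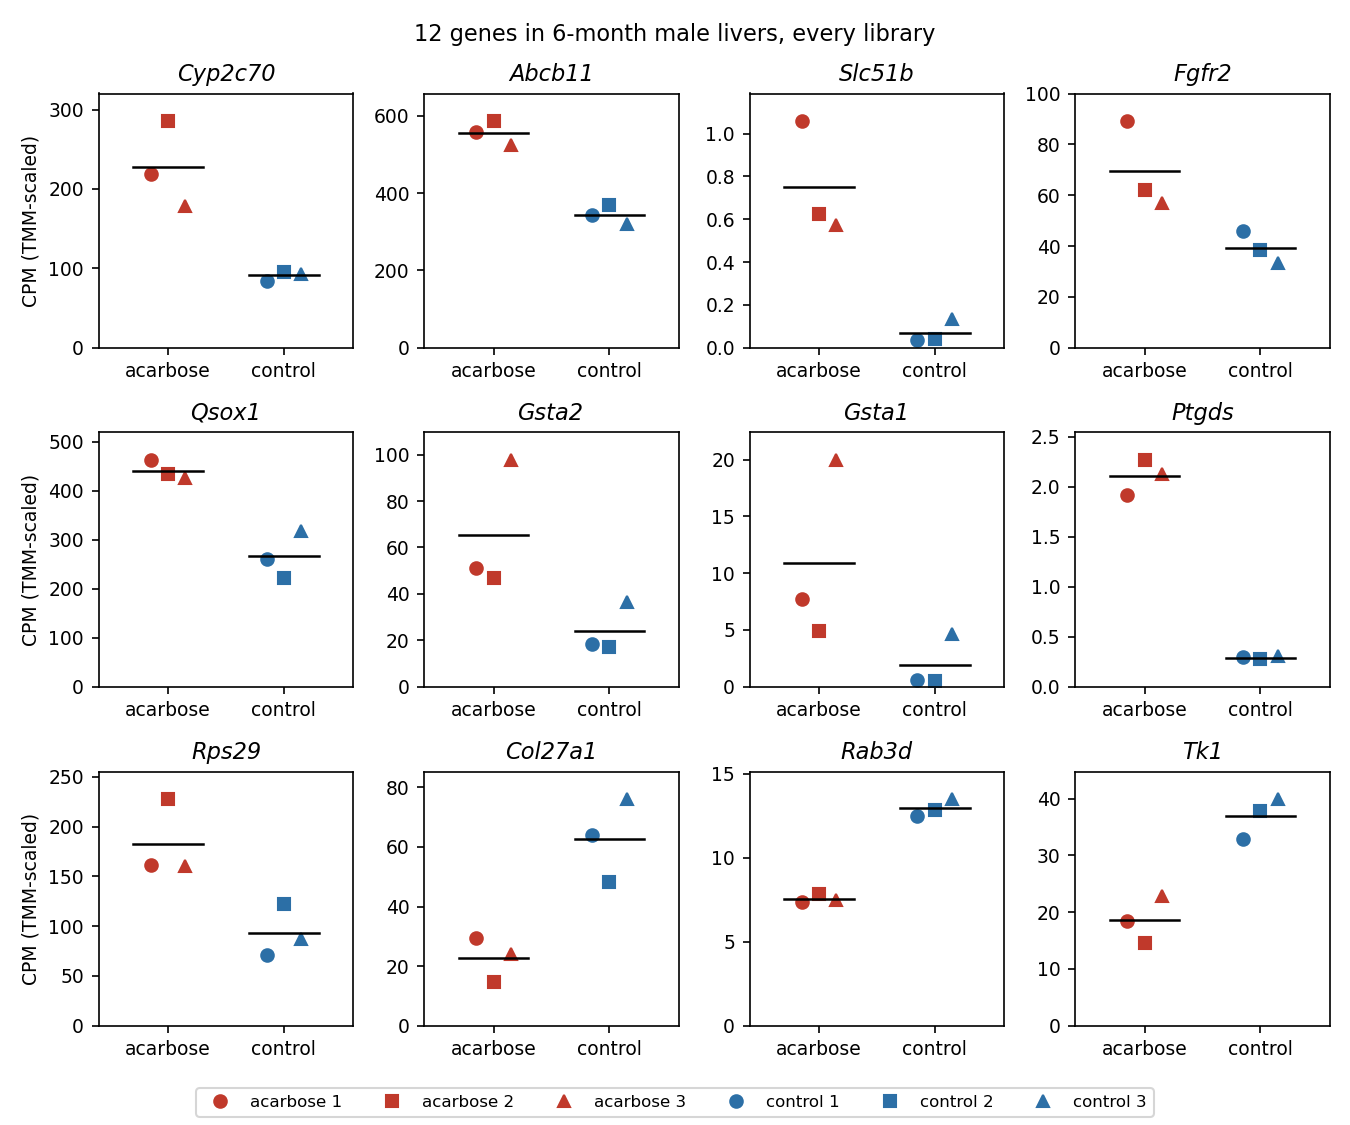
CPM of 12 genes in 3 acarbose (red, left) and 3 control (blue, right) males of 6 months, with a symbol per mouse, a bar at the group mean and each axis starting at 0. In every panel the acarbose mice lie wholly on one side of the control mice. Most of the 12 met a naming rule that requires this, and it holds for 16.2% of all genes.

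Further genes with small p-values were set apart by modest, tight differences. Fgfr2, a fibroblast growth factor receptor, had 89.3, 62.1 and 56.8 CPM in acarbose males against 46.1, 38.4 and 33.4 CPM in control males (0.82 ± 0.18, edgeR adjusted p = 0.324, DESeq2 adjusted p = 0.0283). Males of 6 months on calorie restriction had 44.2 to 65.9 CPM and those on 17-alpha-estradiol 45.3 to 66.7 CPM of Fgfr2, which overlap the acarbose males. Qsox1, a secreted enzyme that forms disulfide bonds, had 463, 433 and 425 CPM in acarbose males against 260, 222 and 317 CPM in control males (0.73 ± 0.17, edgeR adjusted p = 0.324, DESeq2 adjusted p = 0.0286). Both rose in females, by 1.09 and 0.66 (edgeR adjusted p = 0.000447 and 0.0105), and stood at 0.22 and -0.32 in 12-month males. Nabp1, a single-stranded DNA binding protein gene (0.71 ± 0.18), the spliceosome gene Snrpe (0.39 ± 0.10) and the ubiquitin ligase adaptor gene Klhl2 (0.37 ± 0.09) were also higher in each acarbose male than in each control male. Klhl2 had 41.3, 43.8 and 41.4 CPM in acarbose males against 33.4, 32.1 and 32.6 CPM in control males, with a spread of a few CPM in each group.

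On the lower side, among genes whose groups did not overlap and whose log2 CPM averaged 2 or more, Rab3d had the smallest p. This small GTPase of secretory vesicles had 7.34, 7.85 and 7.46 CPM in acarbose males against 12.5, 12.8 and 13.5 CPM in control males (-0.78 ± 0.17, edgeR adjusted p = 0.26, DESeq2 adjusted p = 0.0283). In females it was at -0.05 and in 12-month males at 0.05. Col27a1, a fibrillar collagen, had 29.5, 14.5 and 24 CPM in acarbose males against 63.9, 48.3 and 76.2 CPM in control males (-1.47 ± 0.38, edgeR adjusted p = 0.34, DESeq2 adjusted p = 0.0471), against -0.08 in females and -0.69 in 12-month males.

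Tk1, the thymidine kinase of DNA synthesis, had 18.4, 14.6 and 22.9 CPM in acarbose males against 32.9, 37.8 and 40 CPM in control males (-0.98 ± 0.25, edgeR adjusted p = 0.324). It was at -0.35 in females and, on the other side of 0, at 0.77 in 12-month males, where the 12-month minus 6-month difference was 1.73 (edgeR adjusted p = 0.122). Thra, a thyroid hormone receptor, had 14.5, 14.2 and 12.4 CPM in acarbose males against 22.2, 22.5 and 16.9 CPM in control males (-0.58 ± 0.15, edgeR adjusted p = 0.34) and was at -0.52 in females and 0.16 in 12-month males. Ankmy2 (-0.64 ± 0.16), the adenylate cyclase gene Adcy6 (-0.52 ± 0.13), the cullin gene Cul7 (-0.63 ± 0.16), the netrin receptor gene Unc5b (-0.92 ± 0.24), the Wnt co-activator gene Bcl9 (-0.72 ± 0.19) and Kank3 (-0.73 ± 0.19) complete the 10 lower genes of this rule, none of them with overlap.

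Some DESeq2 calls rest on few counts or on part of a group. Rgcc had 0, 0 and 0 counts in acarbose males and 2, 4 and 8 counts in control males, and Slc36a2, one of the genes high in control male 3, had 0, 0 and 0 counts in acarbose males and 2, 1 and 84 counts in control males, so no fold is given. Cyp2c39 had 14, 173 and 50.6 CPM in acarbose males against 14.6, 14.4 and 10.5 CPM in control males, with acarbose male 1 inside the control range. The major urinary protein gene Mup15 had 2, 5 and 1 counts in acarbose males and 9868, 14 and 2643 counts in control males, where control male 2 was near the acarbose males and both other control males were far from them.

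Mup genes encode pheromone carriers made by male liver, and they made up the lower side of the male-biased list. Of its 30 measured genes, 4 were at p under 0.05 and lower (13.3%, against 4.89% of all genes) and 1 higher (3.33%, against 3.63%), with a median of 0.02. The 4 were Mup15, Mup14, Mup11 and Mup16, and the 1 higher was the glucuronosyltransferase gene Ugt2b1 (0.50 ± 0.16). Mup11 had 389, 245 and 348 CPM in acarbose males against 1312, 462 and 1241 CPM in control males. Mup14 had 360, 805 and 282 CPM in acarbose males against 3439, 599 and 2983 CPM in control males, and Mup16 had 5.75, 10.5 and 2.42 CPM in acarbose males against 240, 4.52 and 148 CPM in control males. Control male 2 lay within the acarbose range for Mup14 and Mup16 and nearest to it for the other two. The Mup genes are near-identical copies that may share reads. Of 26 female-biased genes, 3 were higher at p under 0.05 (11.5%, against 3.63% of all genes) and 0 lower, Cyp2c40 and Slc22a26 among them. Without acarbose male 3 the count was 0 higher and 1 lower, and the list median -0.45 in place of 0.04.

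Neighbouring genes on chromosome 2 were higher in acarbose males. Ptgds, a prostaglandin D synthase, had 58, 51 and 52 counts in acarbose males and 8, 7 and 9 counts in control males. In CPM that was 1.92, 2.27 and 2.13 CPM in acarbose males against 0.292, 0.28 and 0.303 CPM in control males (2.83 ± 0.57, edgeR adjusted p = 0.26, DESeq2 adjusted p = 0.00109). Clic3, a chloride intracellular channel gene, had 2.58, 4.5 and 1.15 CPM in acarbose males against 0.328, 0.2 and 0.135 CPM in control males (3.61 ± 0.75, edgeR adjusted p = 0.26, DESeq2 adjusted p = 0.00216). Paxx, a factor of DNA end joining, had 19.5, 27.3 and 15.2 CPM in acarbose males against 9.95, 7.76 and 7.7 CPM in control males (1.29 ± 0.31, DESeq2 adjusted p = 0.0421). Tmem141, a membrane protein gene, had 19.2, 16.3 and 12.7 CPM in acarbose males against 6.31, 7.8 and 8.75 CPM in control males (1.08 ± 0.26, DESeq2 adjusted p = 0.0456). In all 4 the lowest acarbose mouse was above the highest control.

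On GRCm38, Paxx lies at chr2:25455141-25461094 on the minus strand, Clic3 at chr2:25456838-25458776 on the plus strand, Ptgds at chr2:25466709-25470046 on the minus strand and Tmem141 at chr2:25620067-25622005 on the minus strand. Clic3 lies within the span of Paxx, and the library kit does not mark strand, so reads of their overlap cannot be told apart. Tmem141 likewise lies within the span of Fcnaos (chr2:25607892-25631761, plus strand), with the same limit. Of the genes tested between Ptgds and Tmem141, Rabl6 was the one at p under 0.05 (0.28 ± 0.13). Fcnaos (0.81 ± 0.64), the complement subunit gene C8g (0.17 ± 0.18), Traf2, an adaptor of TNF receptors (0.25 ± 0.16), and Edf1 (0.24 ± 0.15) were higher in each acarbose male than in each control male. Fbxw5 (0.08 ± 0.10), Mamdc4 (-0.01 ± 0.23), Ccdc183 (0.33 ± 0.53) and Phpt1 (-0.43 ± 0.56) overlapped, as did Rabl6. On the other side the transporter gene Abca2 had 85.7, 91.6 and 68.1 CPM in acarbose males against 70.3, 48.4 and 61.1 CPM in control males (0.45 ± 0.18), with overlap. Beyond it Npdc1 was at -0.37 ± 0.25, wholly below the control males, and Entpd2 at -0.43 ± 0.27, with overlap.

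**Figure D3:**
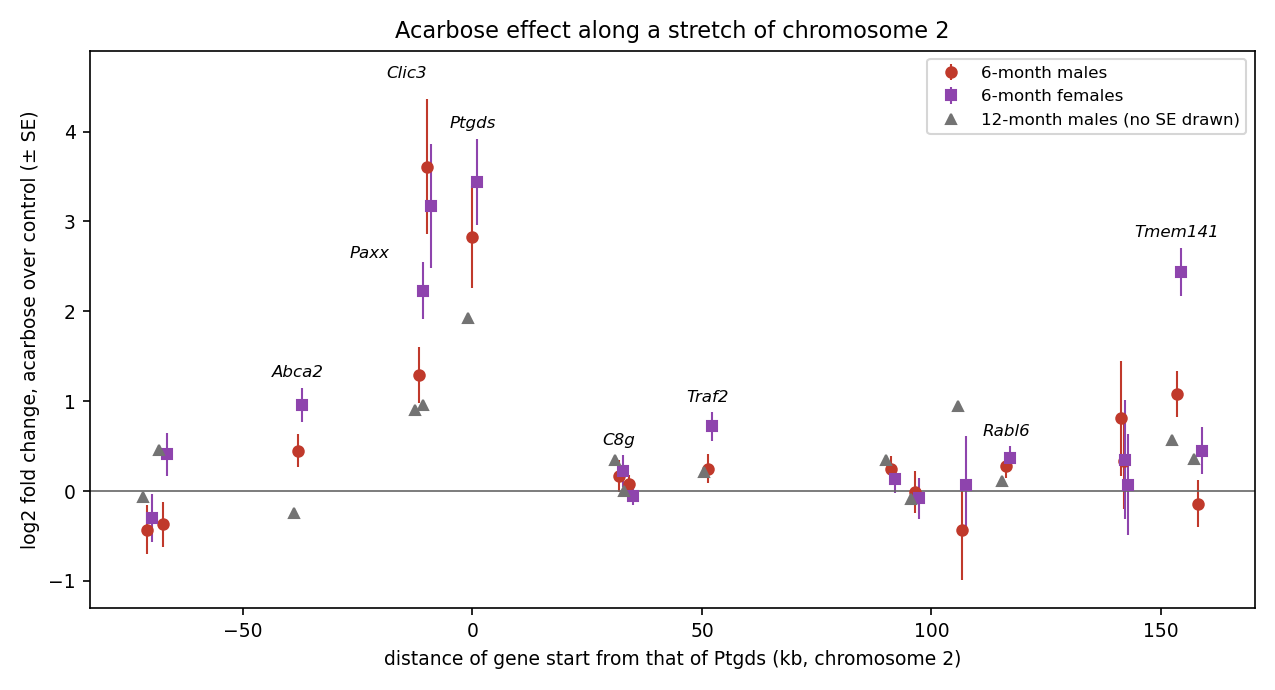
Log2 fold change of acarbose over control (bars are SE, not drawn for 12-month males) of 17 tested genes on chromosome 2, against the distance in kb of each gene's lower coordinate from that of Ptgds, in 6-month males, 6-month females and 12-month males. Paxx, Clic3, Ptgds and Tmem141 stand above 1 in males and above 2 in females.

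All 4 rose in acarbose females, by 2.23 for Paxx, 3.17 for Clic3, 3.44 for Ptgds and 2.44 for Tmem141 (edgeR adjusted p = 0.000106, 0.00368, 9.03e-05 and 7.14e-06). Abca2 and Traf2 rose there too, by 0.96 and 0.72. In 12-month males the values were 0.90, 0.96, 1.93 and 0.57 in the same order, none past the adjusted threshold. Ptgds was at 0.0891 to 2.01 CPM in the 15 male libraries of 6 months without acarbose, the highest of them from calorie restriction, and at 2.03 to 2.78 CPM in control females, so acarbose males were near the level of control females. Calorie-restricted males of 6 months had 7.93 to 16 CPM of Paxx, 0.139 to 1.35 CPM of Clic3 and 0.591 to 2.01 CPM of Ptgds, which overlap the acarbose males. For Clic3, Protandim males overlapped them too, with up to 1.2 CPM. Tmem141 reached 12.6 CPM in calorie-restricted males, just below the lowest acarbose male at 12.7 CPM. The 4 genes were singled out after their values were seen. The promoters of Paxx, Ptgds and Tmem141, in the same window and build, are shown because these neighbours were higher together, at chr2:25461045-25461344, chr2:25469700-25469999 and, for the first of 2 windows listed for Tmem141, chr2:25621956-25622255.

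Paxx: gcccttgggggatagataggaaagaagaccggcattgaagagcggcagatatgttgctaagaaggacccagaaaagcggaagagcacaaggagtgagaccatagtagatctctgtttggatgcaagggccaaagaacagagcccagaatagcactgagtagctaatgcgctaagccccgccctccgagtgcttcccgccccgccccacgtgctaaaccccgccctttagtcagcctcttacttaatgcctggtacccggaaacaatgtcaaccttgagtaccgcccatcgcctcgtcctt
Ptgds: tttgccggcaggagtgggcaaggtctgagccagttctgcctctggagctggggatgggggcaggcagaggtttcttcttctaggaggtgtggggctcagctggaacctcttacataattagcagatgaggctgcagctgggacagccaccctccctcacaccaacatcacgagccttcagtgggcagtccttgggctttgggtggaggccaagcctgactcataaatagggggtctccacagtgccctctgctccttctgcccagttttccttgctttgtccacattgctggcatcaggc
Tmem141: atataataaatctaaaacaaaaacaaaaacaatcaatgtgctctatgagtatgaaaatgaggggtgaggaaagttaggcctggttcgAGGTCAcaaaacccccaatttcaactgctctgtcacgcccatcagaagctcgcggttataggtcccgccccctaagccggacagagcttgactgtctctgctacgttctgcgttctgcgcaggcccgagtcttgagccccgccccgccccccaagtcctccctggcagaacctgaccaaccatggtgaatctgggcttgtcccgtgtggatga

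AGGTCA, in capitals, lies 163 bases before the start in Tmem141, and the windows of Paxx and Ptgds hold it on neither strand.

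Targets of NRF2, the transcription factor of the response to oxidants and electrophiles, were higher on balance. Of 25 measured, 6 were at p under 0.05 and higher (24%, against 3.63% of all genes) and 0 lower, and 8 (32.0%, against 7.69%) lay wholly above the control males. The list median was 0.21, and per mouse, against the control mean, 0.17, 0.14 and 0.52 in acarbose males and -0.11, -0.01 and 0.13 in control males. Gsta2, a glutathione transferase, had 51.2, 46.7 and 97.8 CPM in acarbose males against 18.6, 16.9 and 36.7 CPM in control males (1.44 ± 0.36, edgeR adjusted p = 0.324, DESeq2 adjusted p = 0.0421). Its near copy Gsta1 had 7.77, 4.95 and 20 CPM in acarbose males against 0.62, 0.48 and 4.64 CPM in control males (2.49 ± 0.69, edgeR adjusted p = 0.377), and the copies may share reads. Male 3 was the highest of its group for both genes in both groups.

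Osgin1, an oxidative stress induced growth inhibitor, had 557, 343 and 492 CPM in acarbose males against 250, 64 and 224 CPM in control males (1.37 ± 0.53, edgeR adjusted p = 0.513). Txnrd1, the cytosolic thioredoxin reductase, had 94.4, 91.5 and 96.1 CPM in acarbose males against 64, 72.7 and 76.3 CPM in control males (0.40 ± 0.13, edgeR adjusted p = 0.472). Gsta4, which detoxifies lipid aldehydes (0.83 ± 0.29), and Ugdh, which makes the sugar acid for glucuronidation (0.52 ± 0.22), were the others at p under 0.05. With any of the 6 libraries left out, 4 to 7 of the 25 were at p under 0.05; the median was 0.12 without acarbose male 3 and 0.18 to 0.32 otherwise. In acarbose females 11 rose, against 5.28% of all genes, and 1 fell, against 5.35%, at an edgeR adjusted p under 0.05 (median 0.51), with Gsta1 at 5.31. In 12-month males the median was 0.26. Calorie-restricted males had 46.8 to 75.2 CPM of Gsta2, which overlaps the acarbose males.

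Genes of the cytosolic ribosome were above 0 in nearly every member. Of 76 measured, 73 had a log2 fold change above 0, 36 were at p under 0.05 and higher (47.4%, against 3.63% of all genes) and 0 lower, with a median of 0.29. Rps29 had 161, 228 and 160 CPM in acarbose males against 70.9, 122 and 87.5 CPM in control males (0.97 ± 0.25, edgeR adjusted p = 0.34). Rps20 had 125, 122 and 124 CPM in acarbose males against 77.9, 108 and 85.2 CPM in control males (0.46 ± 0.15, edgeR adjusted p = 0.472), and Rpl39 was at 0.45 ± 0.14. Control male 2 was the highest control for these 3 genes.

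The count depends on single libraries. The list median per mouse, against the control mean, was 0.22, 0.40 and 0.27 in acarbose males and -0.15, 0.29 and -0.12 in control males, so control male 2 lay among the acarbose males. Without control male 2 the count was 63 and the median 0.44. Without control male 1, control male 3 or acarbose male 2 the count was 6, 9 or 10 and the median 0.21, 0.23 or 0.24. These genes are short, with a median transcript length of 1100 bases against 3200 over all genes, and the median was 0.22 with the trend on length and GC content removed. Many have near-identical pseudogenes that may share reads. The median was 0.12 in females, with 0 past the adjusted threshold, and 0.40 in 12-month males.

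All 31 measured proteasome subunits, which degrade tagged proteins, had a log2 fold change above 0, from 0.08 to 0.33, with a median of 0.20. Of these, 8 were at p under 0.05 (25.8%, against 3.63%) and 16 lay wholly above the control males (51.6%, against 7.69%). Psmb2, a core subunit, had 58.5, 60.9 and 60 CPM in acarbose males against 47.2, 52.2 and 47.4 CPM in control males (0.29 ± 0.11, edgeR adjusted p = 0.517). The ATPase subunit gene Psmc5 had 88.3, 96.7 and 93.2 CPM in acarbose males against 65.7, 83.4 and 76 CPM in control males (0.31 ± 0.12, edgeR adjusted p = 0.537). Without control male 2 the count at p under 0.05 was 15; it was 5 with acarbose male 3 left out, 3 with control male 3 left out and 1 with either acarbose male 2 or control male 1 left out, with medians of 0.18 to 0.25. With the length and GC trend removed the median was 0.13, and in females it was -0.07.

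The list of endoplasmic reticulum chaperones also holds a transcription factor gene, Atf4. Of its 23 genes 21 were above 0, as 47.3% of all genes were (median 0.18). At p under 0.05, 2 were higher (8.7%, against 3.63% of all genes), Dnajb9 and Atf4. Dnajb9, a co-chaperone of BiP, had 79.1, 107 and 150 CPM in acarbose males against 70, 65.1 and 67.6 CPM in control males (0.73 ± 0.25, edgeR adjusted p = 0.475). Atf4, a stress transcription factor, had 108, 107 and 111 CPM in acarbose males against 78.9, 81.2 and 75.7 CPM in control males (0.47 ± 0.18, edgeR adjusted p = 0.502). The list median was -0.02 without acarbose male 3 and 0.03 to 0.43 without each of the others. Of 25 autophagy and lysosome genes 3 were higher at p under 0.05 (12.0%, against 3.63%), Hexa, Atg12 and Sqstm1, and the count was 0 without acarbose male 3 and 1 without control male 2.

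**Figure D4:**
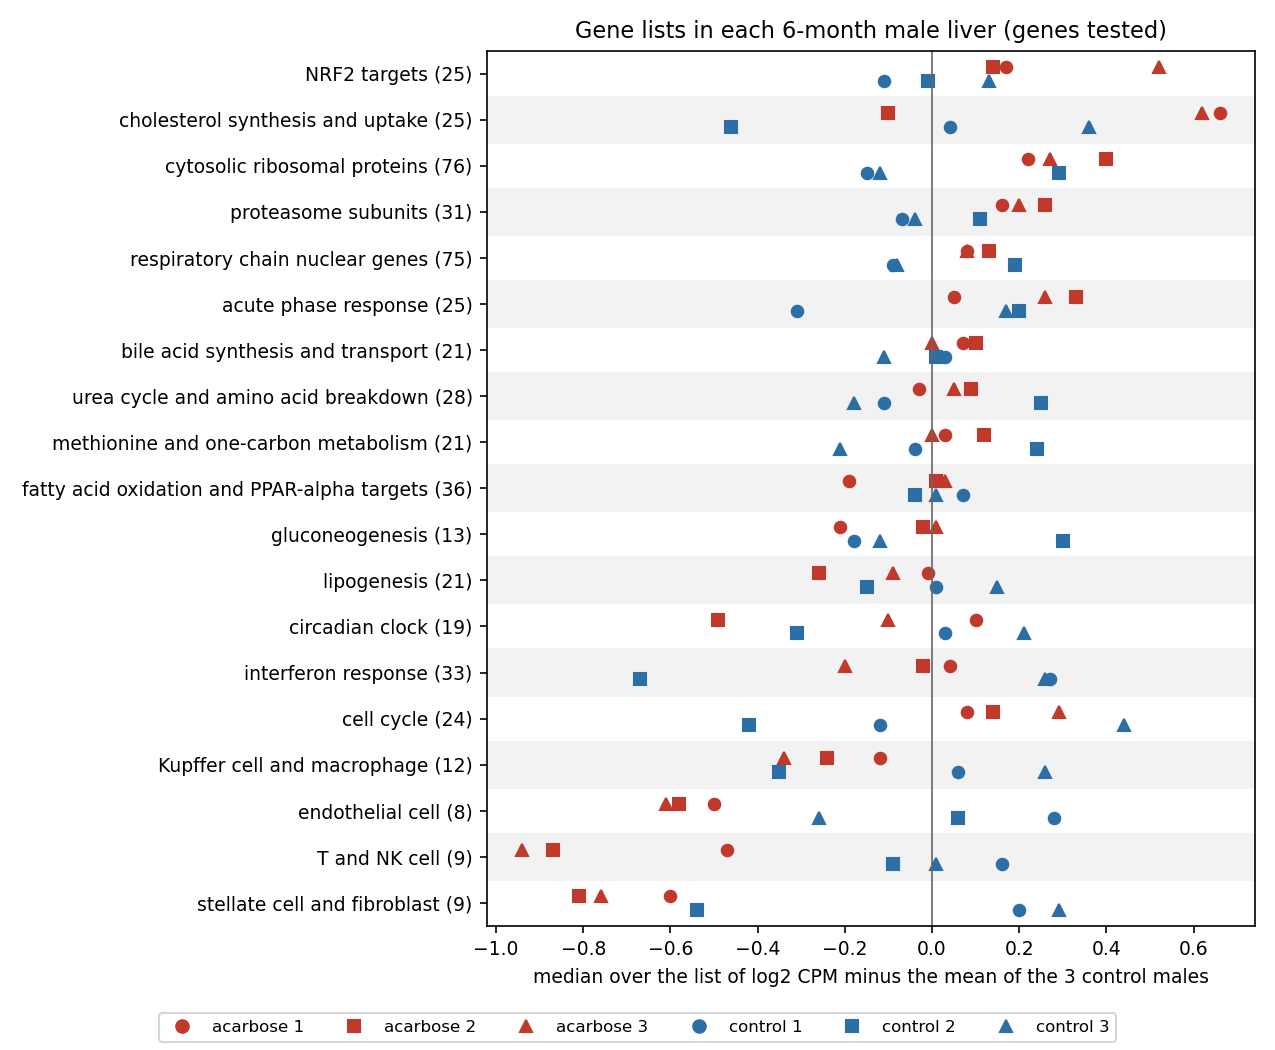
For 19 gene lists (genes tested in parentheses), the median over the list of log2 CPM minus the mean of the 3 control males, with a symbol per mouse, acarbose in red and control in blue. The acarbose mice lie wholly to the right of the control mice for NRF2 targets and proteasome subunits, and wholly to the left for the stellate, endothelial and T and NK cell lists.

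Markers of stellate cells, endothelial cells and T and NK cells were lower on balance in acarbose males. In whole liver, fewer cells of a type and less RNA per cell cannot be told apart. All 9 measured markers of stellate cells and fibroblasts, which store vitamin A and make matrix, were below 0, and 6 were at p under 0.05 (66.7%, against 4.89% of all genes), with a median of -0.76. Reln, a secreted glycoprotein, had 46.4, 37.7 and 32.4 CPM in acarbose males against 113, 50.2 and 69.3 CPM in control males (-1.0 ± 0.29, edgeR adjusted p = 0.428). The collagen gene Col1a2 had 6.22, 5.8 and 5.12 CPM in acarbose males against 10.2, 7.08 and 11.7 CPM in control males (-0.76 ± 0.28, edgeR adjusted p = 0.502). Lrat, which stores retinol as esters, had 6.55, 3.92 and 5.86 CPM in acarbose males against 9.84, 5.76 and 10.9 CPM in control males (-0.70 ± 0.28, edgeR adjusted p = 0.537).

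The summed level of the stellate cell list was 168, 125 and 115 CPM in acarbose males and 276, 160 and 218 CPM in control males, with control male 2 inside the acarbose range. Leaving out acarbose male 3 turned the count of 6 into 4, acarbose male 2 into 3, control male 2 into 8, control male 1 into 2 and control male 3 into 1, with medians of -0.93 to -0.58. Cyp26b1, which breaks down retinoic acid and is not in the stellate cell list, had 3.17, 3.7 and 4.75 CPM in acarbose males against 6.45, 10.7 and 13.5 CPM in control males (-1.40 ± 0.47, edgeR adjusted p = 0.472). It was at -0.11 in females and, on the other side of 0, at 2.28 in 12-month males (edgeR adjusted p = 0.486). The 12-month minus 6-month difference was 3.65 (edgeR adjusted p = 0.273).

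All 8 endothelial markers were below 0 (median -0.61), 4 wholly below the control males (50%, against 8.49%) and 0 at p under 0.05. Cdh5, the cadherin of vessel junctions, had 17.3, 16.7 and 14 CPM in acarbose males against 31, 22.3 and 20.1 CPM in control males (-0.61 ± 0.31, edgeR adjusted p = 0.602), and Fcgr2b, an Fc receptor of liver sinusoids, had 27.3, 26.5 and 27.1 CPM in acarbose males against 41.5, 44.3 and 38.3 CPM in control males (-0.62 ± 0.32, edgeR adjusted p = 0.609). The 12 T and NK cell markers summed to 1.98, 1.52 and 1.27 CPM in acarbose males and 4.05, 3.04 and 4 CPM in control males. All 9 that were tested were below 0 (median -0.94) and 3 at p under 0.05 (33.3%, against 4.89% of all genes), but 0 were when the third mouse of either group was left out, and 1 when the second mouse of either group was.

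The medians of the stellate, endothelial and T and NK cell lists were 0.30, 0.10 and 0.48 in acarbose females and 0.15, 0.31 and 0.27 in 12-month males, with 0 members past the adjusted threshold in females. The 12 Kupffer cell and macrophage markers had a median of -0.25 in males, with 0 lower and 1 higher at p under 0.05 (8.33%, against 3.63% of all genes). That gene, the scavenger receptor gene Marco, had 1.19, 2.9 and 3.11 CPM in acarbose males against 1.38, 0.56 and 0.505 CPM in control males (1.54 ± 0.62, edgeR adjusted p = 0.537), with overlap. In females the median of this list was 0.72 and 6 of 12 rose, against 5.28% of all genes. The 7 cholangiocyte markers tested had a male median of -0.03, with 3 above and 4 below 0 and 0 at p under 0.05. Of 6 fat cell markers tested, 4 were lower at p under 0.05 (66.7%, against 4.89% of all genes) with a median of -3.45; the count was 0 without control male 3, where the median was -0.96, 0 without acarbose male 1 or 2, and 2 without acarbose male 3. The part of these markers in the values of other genes was not tested.

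Several metabolic lists with calls in acarbose females were near 0 in the males. Over 36 genes of fatty acid oxidation and PPAR-alpha targets the male median was -0.03 with 0 at p under 0.05, and the female median -0.66 with 14 that fell, against 5.35% of all genes in females. Over 13 gluconeogenesis genes it was -0.09 with 0 in males, and -0.62 with 6 that fell in females, where the same share of all genes applies. Over 21 genes of methionine and one-carbon metabolism the medians were 0.00 in males and -0.49 in females, and over 28 genes of the urea cycle and amino acid breakdown 0.05 in males and -0.46 in females. By the male minus female difference itself, 0 fatty acid oxidation and 0 gluconeogenesis genes were past the adjusted threshold. In the methionine and urea cycle lists 4 and 1 were past it, higher in males, as were 0.162% of all genes. In males the methionine and urea cycle lists each had 1 member higher at p under 0.05 (4.76% and 3.57%, near the 3.63% of all genes) and 0 lower. Dmgdh, of choline breakdown, had 818, 848 and 1008 CPM in acarbose males against 744, 675 and 702 CPM in control males (0.34 ± 0.13, edgeR adjusted p = 0.503). Glul, the glutamine synthetase of hepatocytes near the central vein, had 1111, 1381 and 1385 CPM in acarbose males against 989, 887 and 996 CPM in control males (0.43 ± 0.18, edgeR adjusted p = 0.551).

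Lipid and sugar metabolism gave few differences. Of 25 cholesterol genes 23 were above 0 (median 0.32), but mice within a group differed as much: the list median per mouse was 0.66, -0.10 and 0.62 in acarbose males and 0.04, -0.46 and 0.36 in control males. Tm7sf2, a sterol reductase, was its 1 member at p under 0.05 (4.0%, near the 3.63% of all genes), with 202, 186 and 214 CPM in acarbose males against 127, 124 and 162 CPM in control males (0.55 ± 0.21). Of 21 lipogenesis genes 19 were below 0 (median -0.18) and 0 at p under 0.05. The 18 glycolysis, 13 glycogen and 20 citric acid cycle genes had 0 at p under 0.05 and medians of -0.03, 0.05 and 0.03. The growth factor binding protein gene Igfbp2 had 1494, 1636 and 1614 CPM in acarbose males against 1044, 1214 and 881 CPM in control males (0.60 ± 0.28, edgeR adjusted p = 0.577).

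Of 25 acute phase genes 4 were higher at p under 0.05 (16.0%, against 3.63% of all genes) and 0 lower, with a median of 0.13. Crp, C-reactive protein, had 215, 208 and 228 CPM in acarbose males against 116, 163 and 146 CPM in control males (0.61 ± 0.20, edgeR adjusted p = 0.472), and the others were the fibrinogen chain genes Fga, Fgb and Fgg. Without acarbose male 2 or control male 1 the count was 1. In 12-month males the list median was -0.50, with 7 lower at p under 0.05, against 4.36% of all genes at that age. The interferon list had a median of -0.16 with 0 at p under 0.05 at 6 months, and -0.61 with 14 lower at 12 months.

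The female comparison had many more calls: 783 genes rose (5.28%) and 792 fell (5.35%) at an edgeR adjusted p under 0.05. The total of 1575 dropped to 521 when acarbose female 3 was left out and was 2484 when acarbose female 1 was, the extremes over the female libraries. Of the 783, 542 (69.2%) were above 0 in acarbose males, where 47.3% of all genes were, with a median of 0.12 in males against 0.78 in females. Of the 792, 539 (68.1%) were below 0 in males, where 52.6% of all genes were, with a median of -0.08 in males against -0.66 in females. At p under 0.05 in males and in the same direction there were 100 (12.8%, against 3.63% of all genes) and 65 (8.21%, against 4.89%). With a male library left out the same-sign shares were 64.8% to 75.6% and 61.4% to 72.3%.

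**Figure D5:**
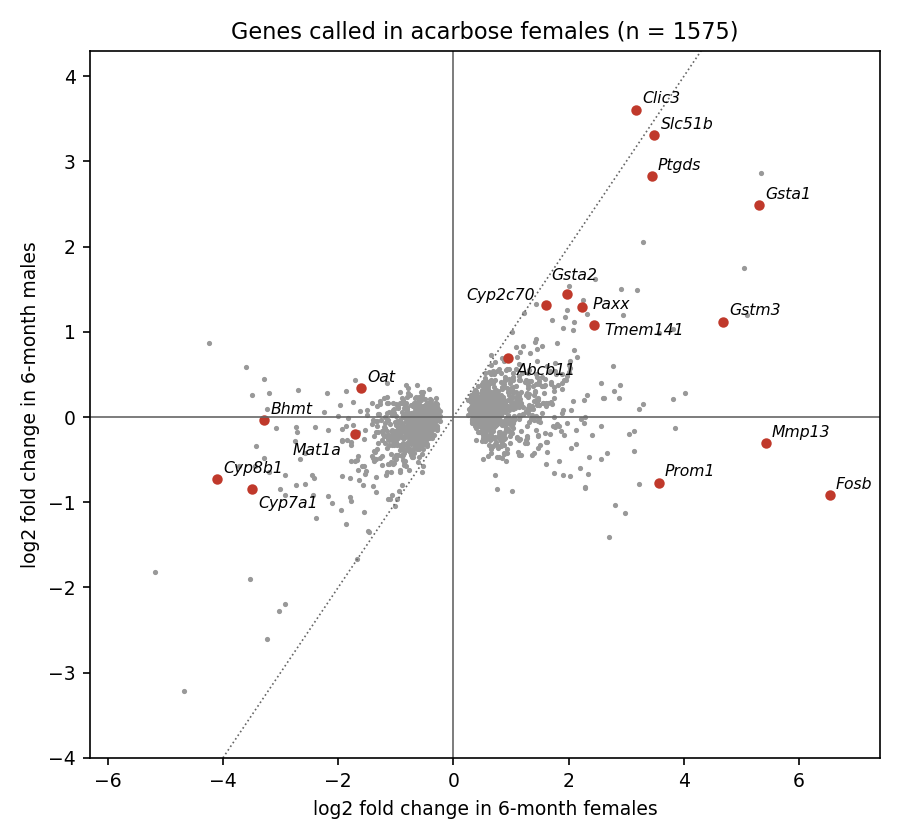
Log2 fold change in 6-month males (vertical) against that in 6-month females (horizontal) for the 1575 genes called in females, with a dotted line where both are equal. Abcb11, Slc51b, Cyp2c70, Gsta2 and Ptgds are above 0 in both, while Bhmt is at -3.29 in females and -0.04 in males.

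The male minus female difference was past the adjusted threshold for 56 genes (0.378%), 24 higher (0.162%) and 32 lower (0.216%) in males. Bhmt, which remethylates homocysteine with betaine, had 2830, 3605 and 1865 CPM in acarbose males against 3256, 3295 and 1977 CPM in control males, and 1196, 813 and 548 CPM in acarbose females and 9659, 6539 and 8838 CPM in control females, a difference of 3.25 ± 0.68 (edgeR adjusted p = 0.0375). Oat, ornithine aminotransferase, had 932, 971 and 1094 CPM in acarbose males against 802, 796 and 773 CPM in control males, and 627, 380 and 384 CPM in acarbose females and 1531, 1393 and 1296 CPM in control females, a difference of 1.94 ± 0.36 (edgeR adjusted p = 0.0191). Mat1a, which makes S-adenosylmethionine in liver, differed by 1.51 ± 0.33 (edgeR adjusted p = 0.0407). The difference was -0.26 ± 0.23 for Abcb11, -0.27 ± 0.42 for Cyp2c70, -0.61 ± 0.76 for Ptgds and -0.54 ± 0.51 for Gsta2, with edgeR adjusted p of 0.645, 0.809, 0.753 and 0.66, which does not show that the sexes respond alike. The count of 56 was 2 without control female 1, 388 without acarbose female 1, which are the extremes, and 6 without acarbose male 3.

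In 12-month males 3 of 13639 genes passed (0.022%), 2 higher (0.0147%) and 1 lower (0.00733%), Slc51b among the higher. At p under 0.05 there were 1226 (8.99%), 632 higher (4.63%) and 594 lower (4.36%). The count of 3 was 0 with acarbose male 2 or any control male of 12 months left out. The difference between 12-month and 6-month males passed for 0 of 15159 genes (lowest edgeR adjusted p 0.11), with 1210 (7.98%) at p under 0.05, 567 higher (3.74%) and 643 lower (4.24%), and 23 calls by DESeq2. Age and duration cannot be told apart here. Of the 629 genes higher at p under 0.05 at 12 months and tested at 6, 39 (6.2%) were so at 6 months, against 3.63% of all genes. Gsta2 was at 2.94, Gsta1 at 3.13 and Ptgds at 1.93 at 12 months.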

How the data were processed

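PolyA RNA of liver was sequenced. The deposited values are whole-number read counts per gene, made with bcl2fastq 1.8.4, Trimmomatic 0.32, STAR 2.5.2b and featureCounts 1.5 on GRCm38, per the submitters' processing notes; the strand setting is not given in the sources used here. Of 43629 genes, 42462 had a symbol. Library totals ran from 15521588 to 37778510 counts. edgeR 4.0.16 (R 4.3.3; TMM, filterByExpr, robust quasi-likelihood test, Benjamini-Hochberg adjustment over all genes tested) was fitted to all 36 libraries of 6 months with a coefficient for each of 12 groups, to 24 libraries of 12 months, and to these 60 together for the difference between ages. DESeq2 1.42.0, other scalings and filters, smaller fits, a replicate block and leaving out each library were alternatives. The fit was tested on simulated data. The group compared and the gene lists were chosen with earlier results of these data known. Named genes were those with the smallest p, without overlap and with a mean log2 CPM of at least 2, up to 3 per list, those that differed most between the sexes, those that changed most in females, the DESeq2 calls and a set of genes known for acarbose from earlier results; Ly6a, Cyp2c39, Nr0b2, Nr1h4, Mup11, Mup16, Osgin1, Ugdh and the chromosome 2 genes were named after their values were seen. Of 943 list members 942 were matched. Promoters come from RefSeq. Some items are not reported here.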

Additional observations from a re-analysis of the deposited data

Results flagged for a closer look

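The acarbose effect differed between the sexes at 6 months for 56 genes by the test of the difference itself (edgeR adjusted p under 0.05). Higher in males by male minus female log2 fold change were Bhmt (3.25), Gm14097 (2.96), Oat (1.94), 4921531C22Rik (1.56), Chrna2 (1.53), Mat1a (1.51), Dmgdh (1.11) and the mitochondrial chaperone gene Hspd1 (0.80). By the same difference, the effect was lower in males than in females for Fosb (-7.45), an immediate early transcription factor, Mmp13 (-5.73), a collagenase, Prom1 (-4.33), Knstrn (-3.29), a spindle gene, and E2f2 (-3.08), a cell cycle transcription factor. In that order they rose in females by 6.53, 5.42, 3.56, 3.13 and 2.66. In males they were at -0.92, -0.31, -0.77, -0.16 and -0.42, none at p under 0.05. The genes named as higher in males fell in females, from -3.29 for Bhmt to -0.63 for Hspd1.

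Outside the main measurement, a library of a female given Protandim had 1583 counts over the 29 pancreas acinar genes with a median of 0, against a median of 4 over the 78 libraries. That library enters the fit of the 6-month groups and neither group compared.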

How the results depend on the processing

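The count of 0 genes at an adjusted p under 0.05 in 6-month males was 19 with DESeq2 and 0 in the other alternatives, and the count at an unadjusted p under 0.05 was 875 to 1545 with a library left out. With RLE scaling its split was 608 higher and 682 lower, against 538 and 724. The 56 genes that differed between the sexes were 296 with DESeq2, 3 with only the compared groups, 15 with no filter, 6 without the 6 libraries with RNA of other tissues and 2 to 388 with a library left out. The 1575 female calls were 177 with only the compared groups and 521 to 2484 with a library left out. The 3 calls in 12-month males were 34 with DESeq2, 5 with no filter, 0 with the replicate block and 0 to 3 with a library left out. The 0 calls between ages were 23 with DESeq2 and 0 to 1 with a library left out. The replicate block gave 0 genes in 6-month males, 46 between the sexes and 1670 in females. Same-numbered males correlated at 0.041, 0.127 and -0.031, and differently numbered males at -0.161 to 0.128. With 3 mice per group these values cannot decide whether the samples were paired.

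Of 560 list medians 501 moved by less than the spread between replicates and 59 by more. Of 1529 values of named genes 1492 kept direction and side of the threshold, 19 passed it and 18 changed sign. With a male library left out, the log2 fold changes that changed sign ran over these ranges: Bhmt (-0.27 to 0.18), Fosb (-1.49 to 0.97), Mmp13 (-1.21 to 0.46), Knstrn (-0.48 to 0.81), E2f2 (-0.79 to 0.45), Ppp1r3g (-0.65 to 1.2), Lpin1 (-1.75 to 0.28), Ctrl (-0.38 to 4.55), Cela2a (-3.56 to 7.66), Csf3r (-0.48 to 0.16) and Mat1a (-0.38 to 0.15). Without acarbose male 3 they turned for Bhmt, Mmp13, Ppp1r3g, Ctrl and Cela2a. Without the 6 libraries with RNA of other tissues they were 0.18 for Bhmt, 0.05 for Mmp13, -0.65 for Ppp1r3g and -0.39 for Ctrl. Fewer samples or genes tested are part of these settings, and the cause was otherwise not tested. The length and GC trend was removed as an alternative chosen after seeing the data. Genes of a few counts, such as Slc51b, are limited by depth.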
